A study of Mus musculus with 10 samples.

Results

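The 40 genes described here mark or serve endothelial cells, the cells that line the liver sinusoids and the larger hepatic vessels. They were given as a list of gene symbols, with no threshold on the measured values. The list was drawn up with earlier results of these data known. All 40 of 40 symbols were found among the 55401 genes counted in the study. The data are RNA-seq counts from the livers of 5 WT mice and 5 Thrb hep-/- mice, each sequenced as 1 library. The latter carry a floxed gene for thyroid hormone receptor beta that is removed by Cre under the Afp promoter (Thrb-loxP with Afp-Cre), which is active in the hepatoblast lineage that gives rise to hepatocytes. Endothelial cells are not of that lineage, so the genotype targets their neighbours. The WT mice were littermates, the strain is given as C57Bl6/J in the sample titles, and both groups were fed standard chow with no other treatment. Sex, age and time of collection were not given in the sources used here.

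Liver sinusoidal endothelial cells form a fenestrated lining without a basement membrane. They clear macromolecules from the blood through scavenger and lectin receptors, and they depend on VEGF signalling and on transcription factors such as GATA4 and c-MAF for their identity. They also signal to hepatocytes. WNT2, WNT9B and R-spondin 3 from endothelial cells around the central vein sustain the pericentral programme of hepatocytes, and BMP2 and BMP6 from sinusoidal cells drive hepatocyte production of the iron hormone hepcidin. The comparison of the genotypes asks how these genes stood in the whole liver of mice bred for loss of thyroid hormone receptor beta in hepatocytes.

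Emcn, Aqp1 and Ehd3 rose in Thrb hep-/- livers, by 1.48-fold, 1.24-fold and 1.35-fold. These 3 were the only members past an adjusted p of 0.15, the threshold of the study's methods, and no member was past 0.05. No member fell past the threshold. Of all 12234 genes tested, 1.51% were called higher and 2.57% lower, 4.08% in either direction. The members that did not pass had log2 fold changes from −0.46 (Lyve1) to 0.78 (Wnt9b), and some of these were larger than those of called genes. Over all 40, the 3 included, 30 were fitted higher and 10 lower, at a median log2 fold change of 0.20 (interquartile range 0.02 to 0.31), beside a median of 0.000539 over all genes tested. In whole liver, a change in the number of endothelial cells and a change in RNA per endothelial cell cannot be told apart.

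**Figure D1:**
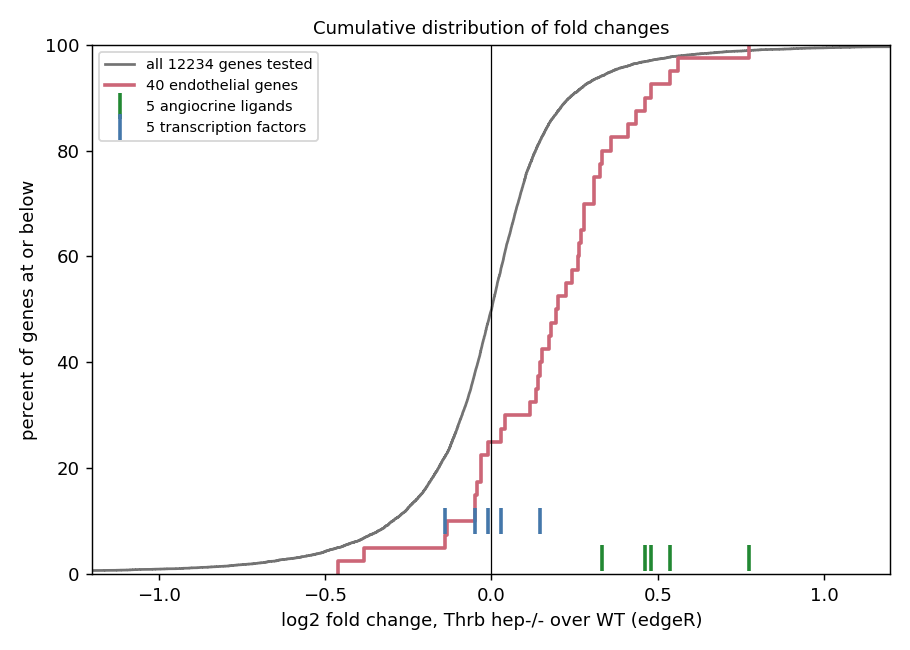
Cumulative distribution of log2 fold changes (x axis, Thrb hep-/- over WT) for the 40 endothelial genes (red line) and all 12234 genes tested (grey line), as the percent of genes at or below each value (y axis). The red line lies to the right of the grey line over most of its course; green ticks mark the 5 angiocrine ligands, all above 0, and blue ticks the 5 transcription factors, which lie on both sides of 0.

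For each of the 3 genes that rose, the promoter window of RefSeq (GRCm38.p6, 250 bases before to 50 after the annotated start) is shown to show whether it holds the half-site bound by thyroid hormone receptors. Capitals mark AGGTCA or its complement TGACCT, which is the only motif marked. The windows are Emcn, chr3:137340828-137341127 (plus strand), Aqp1, chr6:55336049-55336348 (plus strand), and Ehd3, chr17:73804591-73804890 (plus strand).
Emcn: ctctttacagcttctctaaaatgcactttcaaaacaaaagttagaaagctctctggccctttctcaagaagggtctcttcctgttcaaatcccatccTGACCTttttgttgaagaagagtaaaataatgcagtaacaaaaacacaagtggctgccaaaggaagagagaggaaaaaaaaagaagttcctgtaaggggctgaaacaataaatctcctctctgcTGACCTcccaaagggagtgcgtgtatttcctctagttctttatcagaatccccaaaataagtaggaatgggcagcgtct
Aqp1: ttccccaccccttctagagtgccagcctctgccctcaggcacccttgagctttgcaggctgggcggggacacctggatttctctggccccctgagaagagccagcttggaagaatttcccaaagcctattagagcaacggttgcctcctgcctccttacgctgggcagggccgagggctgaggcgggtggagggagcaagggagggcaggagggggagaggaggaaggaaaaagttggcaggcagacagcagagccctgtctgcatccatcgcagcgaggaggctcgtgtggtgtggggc
Ehd3: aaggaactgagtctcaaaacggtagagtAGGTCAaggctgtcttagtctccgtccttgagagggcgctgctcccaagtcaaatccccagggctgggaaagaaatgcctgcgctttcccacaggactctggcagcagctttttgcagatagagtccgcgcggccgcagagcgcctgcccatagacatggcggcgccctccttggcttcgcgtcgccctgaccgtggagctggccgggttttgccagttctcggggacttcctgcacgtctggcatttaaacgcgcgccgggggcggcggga
The Emcn window held 2 half-sites, which began 153 and 29 bases before the start, the Ehd3 window held 1, at 222 bases before it, and the Aqp1 window held none. Promoter entries were found for 23 of the 40 members, with 27 windows in all. AGGTCA was present on either strand in 7 of these 27 windows (25.9%) and in 16.3% of all 32851 windows. The core AGGAAG, one of the sequences bound by ETS factors such as ERG, was present in 15 of 27 (55.6%) against 35.4% of all, and GATAAG, bound by GATA factors, in 2 of 27 (7.41%) against 7.44%. No match of one motif is at the same time a match of another, though neighbouring matches may overlap by a few bases. These counts describe letters in a window, were made after the expression values had been seen, and are no evidence of binding.

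All 40 members passed the filter, which asked for 5 or more libraries with at least 1 CPM (counts scaled to the sum of a library). In 37 of them every library reached that level. The exceptions were Nos3 and Wnt2, which reached it in 4 of 5 WT mice, and Wnt9b, which reached it in 3 of 5, while all 5 Thrb hep-/- mice reached it for each. Raw counts were low in several members, from 14 to 65 for Wnt9b, 21 to 83 for Wnt2, 25 to 57 for Nos3, 31 to 78 for Rspo3, 39 to 96 for Emcn and 42 to 64 for Sox17, and these values carry more counting error than those of well-covered members. The exons of Nos3, Sox17, Icam1, Maf, Rspo3 and Bmp6 share 1040 to 224 bases with genes on the other strand in GENCODE, where reads could not be assigned without the strand. Fcgr2b, Clec4g, Stab2, Stab1, Gpr182, Egfl7, Eng and Vcam1 share fewer bases with such genes, 155 at most. Egfl7 shares 264 bases with a gene on its own strand, where the strand would not help. Total counts per library were 26477195 to 28590704. The targeted gene Thrb measured 32.5 to 34.2 normalized CPM (CPM on library sizes scaled by TMM) in WT and 24.9 to 28.8 in Thrb hep-/- mice, with no overlap (log2 fold change −0.32 ± 0.07 SE, adjusted p = 0.036). Reads were counted over the whole gene and the deleted exons were not looked at separately.

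Compared per length, as normalized CPM per kb of exon, the WT levels ran over a wide range. Aqp1, which encodes the water channel aquaporin 1, was highest at 35.0 ± 2.67 (SD, n = 5), followed by Eng at 14.1, Plvap at 12.2, Clec4g at 10.5 and Dnase1l3 at 8.92. The lowest were Wnt9b at 0.244 ± 0.0981, Emcn at 0.354, Nos3 at 0.359 and Sox17 at 0.372. Of the 39 pairs of neighbours in this order, 37 had overlapping WT ranges, so that the order of most neighbours is not resolved; the exceptions were Aqp1 over Eng and Adgrl4 over Erg. The sinusoidal markers Stab2 (5.13) and Stab1 (4.09) and the more general endothelial genes Kdr (3.95), Cdh5 (4.49) and Pecam1 (2.48) stood in the upper and middle part of the order. Each of these genes was above 1 CPM in every library.

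**Figure D2:**
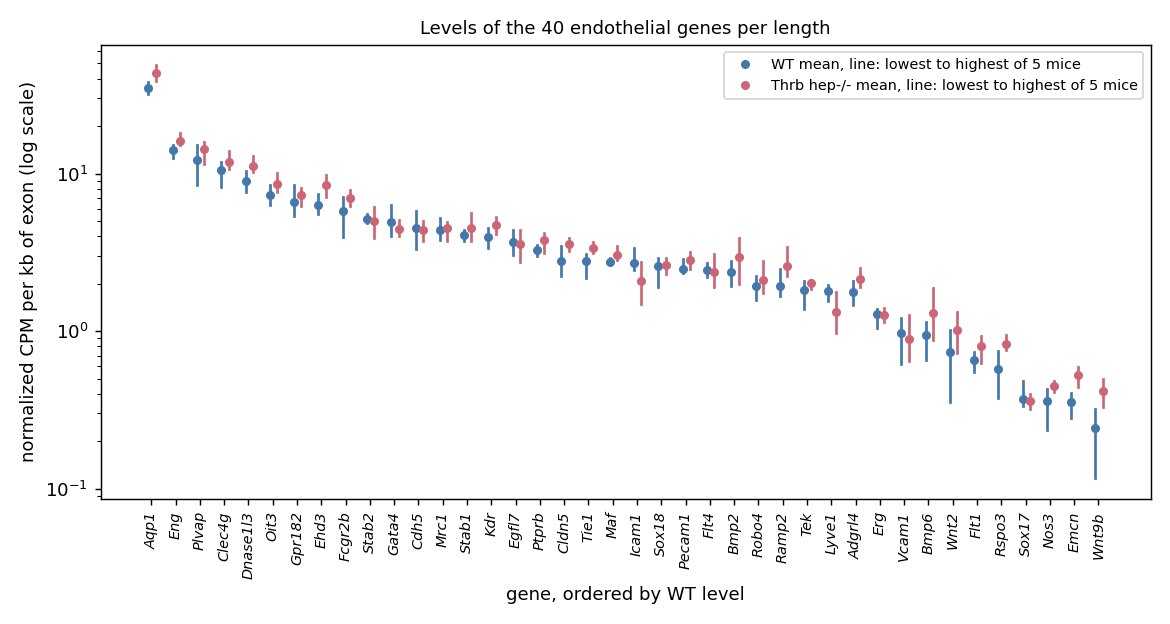
Level of each of the 40 endothelial genes per length (y axis, normalized CPM per kb of exon, log scale), ordered by the WT mean (x axis), with points for the mean of 5 mice and lines from the lowest to the highest mouse (blue WT, red Thrb hep-/-). Aqp1 is highest at 35.0 in WT and Wnt9b lowest at 0.244, and neighbouring lines overlap in nearly all cases.

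Among the 10 sinusoidal receptors and markers, 1 was called (Ehd3), 8 were fitted higher, 2 were fitted lower and the median log2 fold change was 0.16. Ehd3 (ENSMUSG00000024065, chromosome 17 from 73804134 to 73832094) encodes an EH-domain protein of endosomal recycling. It measured 36.3, 36.4, 41.6, 48.7 and 43.6 normalized CPM in the WT mice, listed here and throughout by replicate number, and 57.0, 54.3, 64.4, 46.5 and 57.3 in the Thrb hep-/- mice. A single Thrb hep-/- mouse, the fourth, lay below the highest WT mouse. The log2 fold change was 0.44 ± 0.10 (SE) with an adjusted p of 0.065, and the exact two-sided permutation test over the 10 mice gave p = 0.016. The adjusted p became 0.17 without WT mouse 2 and 0.16 without Thrb hep-/- mouse 3.

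Dnase1l3, the gene of a secreted DNase that degrades DNA in the circulation, lay just outside the threshold. It measured 46.0, 40.4, 53.5, 50.4 and 39.4 normalized CPM in WT mice and 56.0, 58.6, 53.9, 52.6 and 67.1 in Thrb hep-/- mice. The groups overlapped in WT mouse 3 and Thrb hep-/- mouse 4, and the log2 fold change was 0.33 ± 0.10 (adjusted p = 0.155, exact permutation p = 0.016). Without WT mouse 3 it passed the threshold (adjusted p = 0.10, log2 fold change 0.39). Over all 14 alternative fits described below, its adjusted p ranged from 0.066 to 0.33. Oit3, which encodes a ZP-domain protein of sinusoidal cells, measured 22.7, 17.8, 23.5, 20.4 and 17.5 in WT and 23.6, 28.2, 22.1, 21.2 and 25.4 in Thrb hep-/- mice, and the groups overlapped widely (log2 fold change 0.24 ± 0.11, adjusted p = 0.35).

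Lyve1, the hyaluronan receptor of sinusoidal and lymphatic endothelium, had the lowest fold change of all 40. Its values were 4.96, 5.63, 5.54, 4.53 and 5.69 normalized CPM in WT mice and 2.85, 5.14, 3.16, 4.01 and 4.03 in Thrb hep-/- mice. Only Thrb hep-/- mouse 2 reached the WT range, at a log2 fold change of −0.46 ± 0.16 (adjusted p = 0.22, exact permutation p = 0.024). Without that mouse Lyve1 passed the threshold (log2 fold change −0.58, adjusted p = 0.079). Its adjusted p over the 14 alternative fits ranged from 0.079 to 0.44.

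Stab2 and Clec4g, well-known scavenger and lectin genes, gave no difference beyond the spread between mice. Stab2, a clearance receptor for hyaluronan, measured 45.0, 43.3, 48.9, 44.9 and 42.6 in WT and 53.7, 50.3, 39.8, 34.3 and 42.0 in Thrb hep-/- mice, so that the Thrb hep-/- mice spread to both sides of the WT range (log2 fold change −0.03, 95% interval −0.25 to 0.19). Clec4g, the C-type lectin LSECtin, measured 29.3, 26, 26.2, 28.0 and 20.2 in WT and 30.9, 34.5, 26.3, 27.4 and 27.2 in Thrb hep-/- mice (log2 fold change 0.17 ± 0.11, adjusted p = 0.53). The other sinusoidal genes also overlapped between genotypes. Stab1 ranged over 38.4 to 45.1 in WT and 38.2 to 57.6 in Thrb hep-/- mice, and the Fc receptor gene Fcgr2b over 23.0 to 41.2 and 36.3 to 45.4. The mannose receptor gene Mrc1 ranged over 24.3 to 33.1 and 23.8 to 31.2, and the receptor gene Gpr182 over 21.4 to 33.6 and 24.8 to 32. Their adjusted p-values were 0.41 to 0.91.

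Of the 5 VEGF and angiopoietin receptor genes, 4 were fitted higher and none was called (median log2 fold change 0.26). Kdr, the main signalling receptor for VEGF-A, measured 40.5, 35.8, 35.5, 36.1 and 30.4 normalized CPM in WT and 47.7, 41.8, 44.6, 37.4 and 42.5 in Thrb hep-/- mice. WT mouse 1 alone lay above the lowest Thrb hep-/- mouse (log2 fold change 0.26 ± 0.09, adjusted p = 0.20, exact permutation p = 0.016), and without it the adjusted p was 0.13. For Kdr the adjusted p over the 14 alternative fits ranged from 0.11 to 0.40. Tie1, an orphan receptor that modulates angiopoietin signalling, measured 15.2, 13.8, 14, 14.8 and 10.6 in WT and 17.3, 16.9, 15.6, 15.3 and 18.1 in Thrb hep-/- mice. The groups did not overlap, although the highest WT and the lowest Thrb hep-/- mouse were close (log2 fold change 0.28 ± 0.10, adjusted p = 0.24, exact permutation p = 0.0079, the smallest that 5 against 5 mice can give). Flt1, the VEGF receptor often viewed as a decoy, measured 9.27, 8.18, 9.97, 9.65 and 7.41 in WT and 12.6, 9.82, 10.9, 8.47 and 12.2 in Thrb hep-/- mice, with overlap (0.28 ± 0.13 on the log2 scale, adjusted p = 0.36). Tek, which encodes the angiopoietin receptor TIE2, ranged over 6.55 to 9.79 and 8.74 to 10, and Flt4, the VEGF-C receptor gene, over 18.3 to 22.4 and 15.6 to 25.3. Neither showed a difference beyond the spread (log2 fold changes 0.14 and −0.03).

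The 10 junction, surface and pan-endothelial genes held 1 called member, 8 fitted higher and 2 fitted lower, at a median log2 fold change of 0.20. Emcn (ENSMUSG00000054690, chromosome 3 from 137341067 to 137432185) encodes endomucin, a sialomucin of capillary and venous endothelium. It measured 2.19, 1.96, 2.04, 1.52 and 1.87 normalized CPM in WT mice and 3.06, 2.81, 2.40, 3.18 and 2.72 in Thrb hep-/- mice, so that every Thrb hep-/- mouse stood above every WT mouse. The log2 fold change was 0.56 ± 0.15, with an adjusted p of 0.089 and an exact permutation p of 0.0079. Leaving out WT mouse 2, 4 or 5 or Thrb hep-/- mouse 4 took the adjusted p to 0.19, 0.15, 0.20 and 0.19, at log2 fold changes of 0.49 or more.

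Eng, which encodes endoglin, a co-receptor for BMP9, also kept the genotypes apart. It measured 60.3, 51.0, 61.8, 60.1 and 52.0 normalized CPM in WT and 72.9, 62.2, 62.9, 61.9 and 66.1 in Thrb hep-/- mice. The gap between the highest WT and the lowest Thrb hep-/- mouse was narrow (log2 fold change 0.19 ± 0.08, adjusted p = 0.31, exact permutation p = 0.0079). Cldn5, the tight junction gene claudin 5, measured 3.67, 4.02, 3.18, 4.88 and 4 in WT and 5.35, 5.17, 5.56, 4.60 and 4.67 in Thrb hep-/- mice. WT mouse 4 stood inside the Thrb hep-/- range (log2 fold change 0.36 ± 0.13, adjusted p = 0.25), and without it Cldn5 passed the threshold (adjusted p = 0.13). Its adjusted p over the 14 alternative fits ranged from 0.13 to 0.46.

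Ptprb, the endothelial phosphatase VE-PTP, measured 46.4, 40, 45.7, 46.9 and 40 in WT and 52.8, 49.8, 56.2, 41.7 and 50.7 in Thrb hep-/- mice. All but mouse 4 of the latter stood above all WT mice (log2 fold change 0.20 ± 0.09, adjusted p = 0.35). Adgrl4, an adhesion G protein-coupled receptor gene also called Eltd1, measured 9.54, 7.62, 8.97, 7.97 and 6.74 in WT and 9.03, 11.6, 9.19, 8.74 and 10.3 in Thrb hep-/- mice, with overlap (0.26 ± 0.12 on the log2 scale, adjusted p = 0.36). The general endothelial marker Pecam1 (CD31) measured 14.5, 15.1, 17.8, 15.2 and 14.5 in WT and 17.3, 19.8, 16.9, 15.5 and 18 in Thrb hep-/- mice. WT mouse 3 lay within the Thrb hep-/- range and the difference was small (log2 fold change 0.18 ± 0.09, adjusted p = 0.40).

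Cdh5, which encodes VE-cadherin and is as general a marker as Pecam1, showed no such shift. It measured 13.9, 19.5, 24.4, 17.3 and 19.2 in WT and 19.8, 18.6, 15.8, 16.2 and 21.1 in Thrb hep-/- mice (log2 fold change −0.04, 95% interval −0.31 to 0.22). Its interval and that of Pecam1 (0.01 to 0.35) overlapped, and the difference between them was not tested. These intervals use the normal quantile and are narrower than the F-test implies. That of Pecam1 leaves out 0 at an unadjusted F-test p of 0.062. Plvap, the gene of the diaphragm protein of endothelial pores, ranged over 16.8 to 30.4 in WT and 22.7 to 31.5 in Thrb hep-/- mice. Robo4 ranged over 8.32 to 11.8 and 9.26 to 14.8, and Egfl7, an extracellular matrix gene that hosts the microRNA miR-126, over 10.9 to 15.7 and 9.83 to 15.7. The adjusted p-values of these were 0.55 to 0.93.

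**Figure D3:**
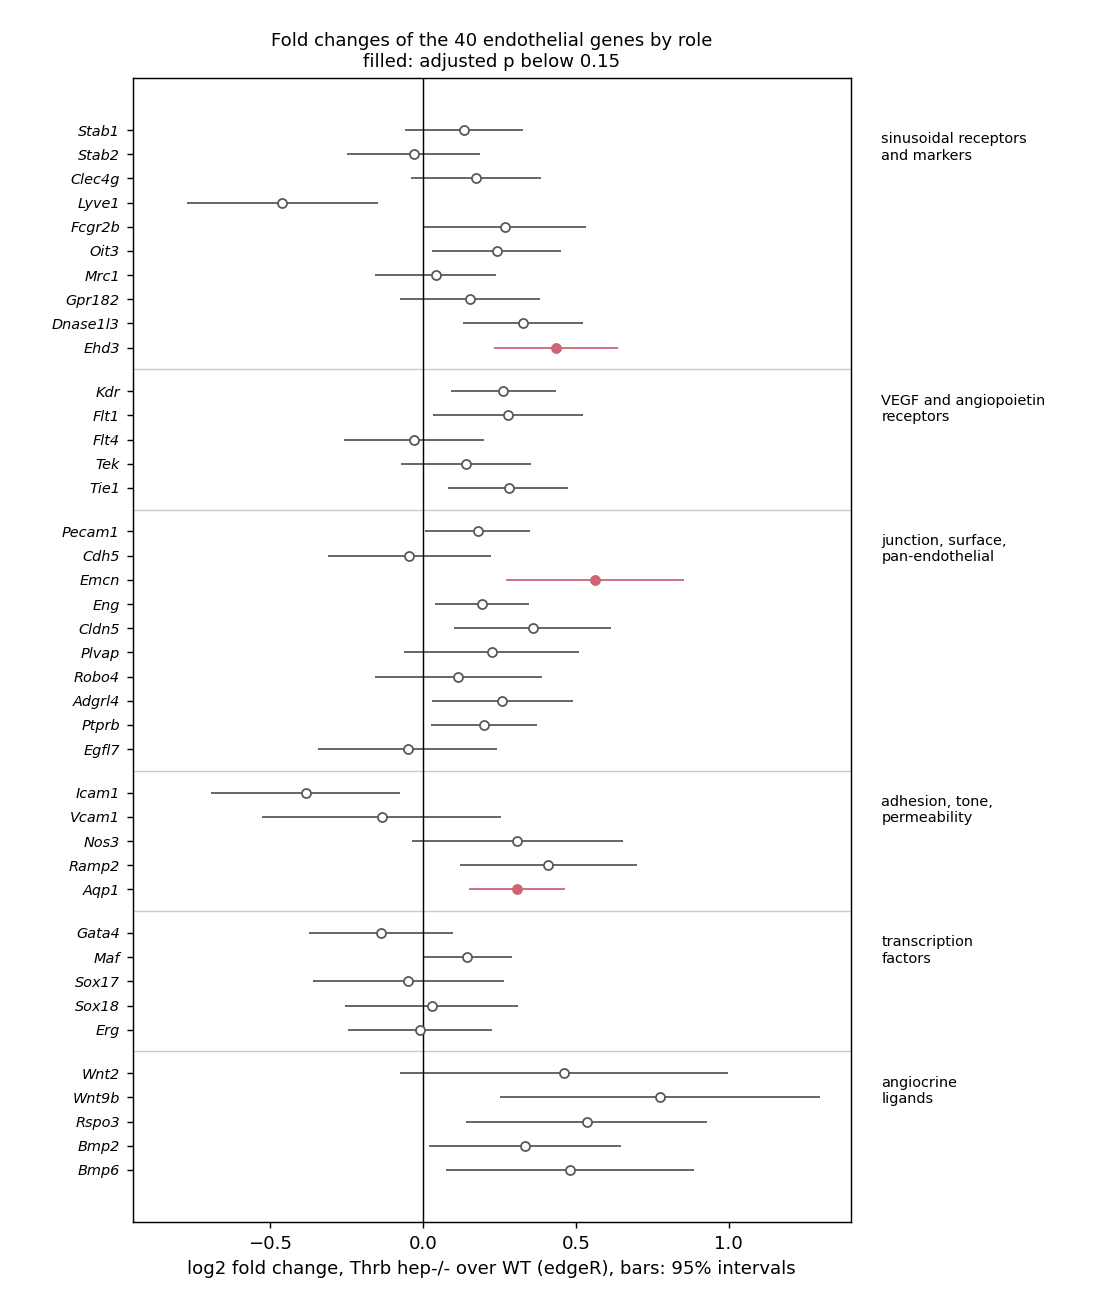
Log2 fold change (x axis, Thrb hep-/- over WT) of each of the 40 endothelial genes (y axis) by role, with bars for the 95% interval and filled red points for the 3 genes past an adjusted p of 0.15. Emcn (0.56), Ehd3 (0.44) and Aqp1 (0.31) are filled, all 5 angiocrine ligands lie above 0 and the transcription factors lie about 0.

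Among the 5 genes of adhesion, vascular tone and permeability, Aqp1 was called and the directions were mixed. Aqp1 (ENSMUSG00000004655, chromosome 6 from 55336432 to 55348555) measured 96.7, 94.9, 84.3, 99.5 and 84.9 normalized CPM in WT mice and 112, 115, 128, 101 and 114 in Thrb hep-/- mice. The groups did not overlap, with 99.5 the highest WT and 101 the lowest Thrb hep-/- value. The log2 fold change was 0.31 ± 0.08 (adjusted p = 0.083, exact permutation p = 0.0079). Leaving out WT mouse 2, 3 or 5 or Thrb hep-/- mouse 3 or 5 gave adjusted p-values of 0.17, 0.18, 0.20, 0.22 and 0.15, none past the threshold. Cholangiocytes also express Aqp1. Their markers Epcam and Krt7 ranged over 0.748 to 1.93 and 0.594 to 0.936 normalized CPM in WT and 0.813 to 1.46 and 0.515 to 0.973 in Thrb hep-/- mice, and the 6 listed markers summed to 24.8 to 47.0 and 24.2 to 29.2. Most of that sum was Spp1, at 18.8 to 36.6 and 17.9 to 22.4. The 3 markers tested were all fitted lower and none was called (log2 fold changes −0.00281 for Epcam, −0.502 for Sox9 and −0.421 for Spp1). The part of cholangiocytes in the Aqp1 values was not tested.

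Ramp2, a partner of the adrenomedullin receptor, measured 5.56, 5.56, 8.22, 6.84 and 5.88 in WT and 7.99, 11.3, 8.13, 7.35 and 7.89 in Thrb hep-/- mice. WT mouse 3 was above 4 of the 5 Thrb hep-/- mice (log2 fold change 0.41 ± 0.15, adjusted p = 0.24), and without it the adjusted p was 0.13. Over the 14 alternative fits the adjusted p of Ramp2 ranged from 0.13 to 0.43. Ramp2 shares 1103 bases of exon with Vps25 on the same strand, so that reads there could not be assigned to either gene. Nos3, endothelial nitric oxide synthase, ranged over 0.977 to 1.78 in WT and 1.69 to 1.98 in Thrb hep-/- mice (log2 fold change 0.31 ± 0.18, adjusted p = 0.48).

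The leukocyte adhesion genes Icam1 and Vcam1 were both fitted lower without passing the threshold, and in Vcam1 the genotypes could not be separated. Icam1 measured 10.6, 12.2, 14.8, 10.7 and 11.1 in WT and 9.03, 6.45, 10.2, 12.0 and 7.74 in Thrb hep-/- mice, where 4 of the 5 lay below all WT mice (log2 fold change −0.38 ± 0.16, adjusted p = 0.31, exact permutation p = 0.056). Vcam1 measured 5.45, 9.72, 10.7, 8.95 and 8.23 in WT and 6.88, 11.3, 5.73, 7.45 and 7.89 in Thrb hep-/- mice, with nearly the same range in both (log2 fold change −0.13 ± 0.20, adjusted p = 0.83). Hepatocytes and macrophages also express both genes, and both are induced by inflammatory signals. Acute-phase plasma protein genes, which hepatocytes raise in inflammation, fell in the same Thrb hep-/- livers, 12 of 16 past the threshold and all 16 fitted lower (median log2 fold change −1.12). Saa1 ranged over 265 to 7130 normalized CPM in WT and 25.8 to 158 in Thrb hep-/- mice, and Saa2 over 142 to 10400 and 20.8 to 91.2 (log2 fold changes −5.03 and −6.06, adjusted p = 0.048 and 0.057). The log2 fold changes of the other called genes were −1.25 for Saa4, −1.13 for Orm1, −4.09 for Orm2, −4.18 for Lcn2, −1.33 for Hp, −0.93 for Hpx, −1.74 for Apcs, −1.09 for Itih3, −0.98 for Itih4 and −0.52 for Cp. The part of this in the Icam1 values was not tested.

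The 5 transcription factor genes stayed close to 0, with none called, none at an unadjusted p under 0.05 and a median log2 fold change of −0.00961. Gata4, a driver of sinusoidal identity also expressed by stellate cells, had the third lowest fold change of the 40. It measured 15.7, 24.5, 17.7, 19.4 and 18.8 in WT and 16.3, 16, 19.9, 19.4 and 15.6 in Thrb hep-/- mice, with WT mouse 2 above all others (log2 fold change −0.14, 95% interval −0.37 to 0.10). Maf ranged over 21.6 to 24.1 and 23.4 to 28.7 (log2 fold change 0.14 ± 0.07, adjusted p = 0.42). Sox17 and Sox18, the SOX factors of vascular development, ranged over 1.59 to 2.29 and 3.07 to 4.69 in WT and 1.52 to 1.89 and 3.74 to 4.74 in Thrb hep-/- mice. Erg, the ETS factor of endothelial homeostasis, ranged over 3.64 to 4.83 and 3.95 to 4.87. The 95% intervals were −0.36 to 0.26 for Sox17, −0.25 to 0.31 for Sox18 and −0.25 to 0.23 for Erg, so that changes of the size fitted for Emcn lay outside them.

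The angiocrine ligands had the highest median log2 fold change of the 6 roles, 0.48, with all 5 fitted higher and none past the threshold. Differences between roles were not tested. Wnt9b measured 0.530, 1.43, 0.715, 1.45 and 1.38 normalized CPM in WT and 1.81, 2.06, 2.23, 1.85 and 1.49 in Thrb hep-/- mice. WT mice 1 and 3 were far below the rest, and the groups did not overlap (log2 fold change 0.78 ± 0.27, the highest of the 40, adjusted p = 0.21, exact permutation p = 0.0079). Only 3 of 5 WT mice reached 1 CPM, so Wnt9b passed the filter through the Thrb hep-/- mice, in which it was higher. Rspo3 measured 1.29, 2.13, 2.32, 1.91 and 1.16 in WT and 2.64, 2.92, 2.33, 2.55 and 2.37 in Thrb hep-/- mice. The groups were apart by a gap of 2.32 to 2.33 only (log2 fold change 0.54 ± 0.20, adjusted p = 0.26, exact permutation p = 0.0079). Wnt2 measured 0.795, 2.31, 1.43, 2.27 and 1.53 in WT and 1.98, 2.96, 2.85, 2.09 and 1.63 in Thrb hep-/- mice, with overlap (0.46 ± 0.27, adjusted p = 0.50). For Wnt2 and Wnt9b the lowest value was that of WT mouse 1, and without it the log2 fold changes were 0.29 and 0.60.

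Bmp6 measured 4.47, 3.22, 2.57, 4.22 and 3.82 normalized CPM in WT and 5.14, 3.41, 7.34, 4.37 and 5.23 in Thrb hep-/- mice, and Thrb hep-/- mouse 3 was the highest (log2 fold change 0.48 ± 0.21, adjusted p = 0.33). Bmp2 measured 9.88, 7.90, 6.86, 8.79 and 8.46 in WT and 10.8, 11.2, 13.9, 7.08 and 9.73 in Thrb hep-/- mice (0.33 ± 0.16, adjusted p = 0.39). The same mouse 3 was highest for both ligands and WT mouse 3 lowest. Without Thrb hep-/- mouse 3 the log2 fold changes were 0.31 and 0.21. Taken as the mean of log2 levels over the 5 ligands, relative to the WT mean, the WT mice stood at −0.15, 0.12, −0.14, 0.19 and −0.02 and the Thrb hep-/- mice at 0.36, 0.41, 0.61, 0.22 and 0.25. These means did not overlap, which is a description of 5 chosen genes and was not tested. Wnt2 and Wnt9b, which passed the filter through the Thrb hep-/- mice, are among them.

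**Figure D4:**
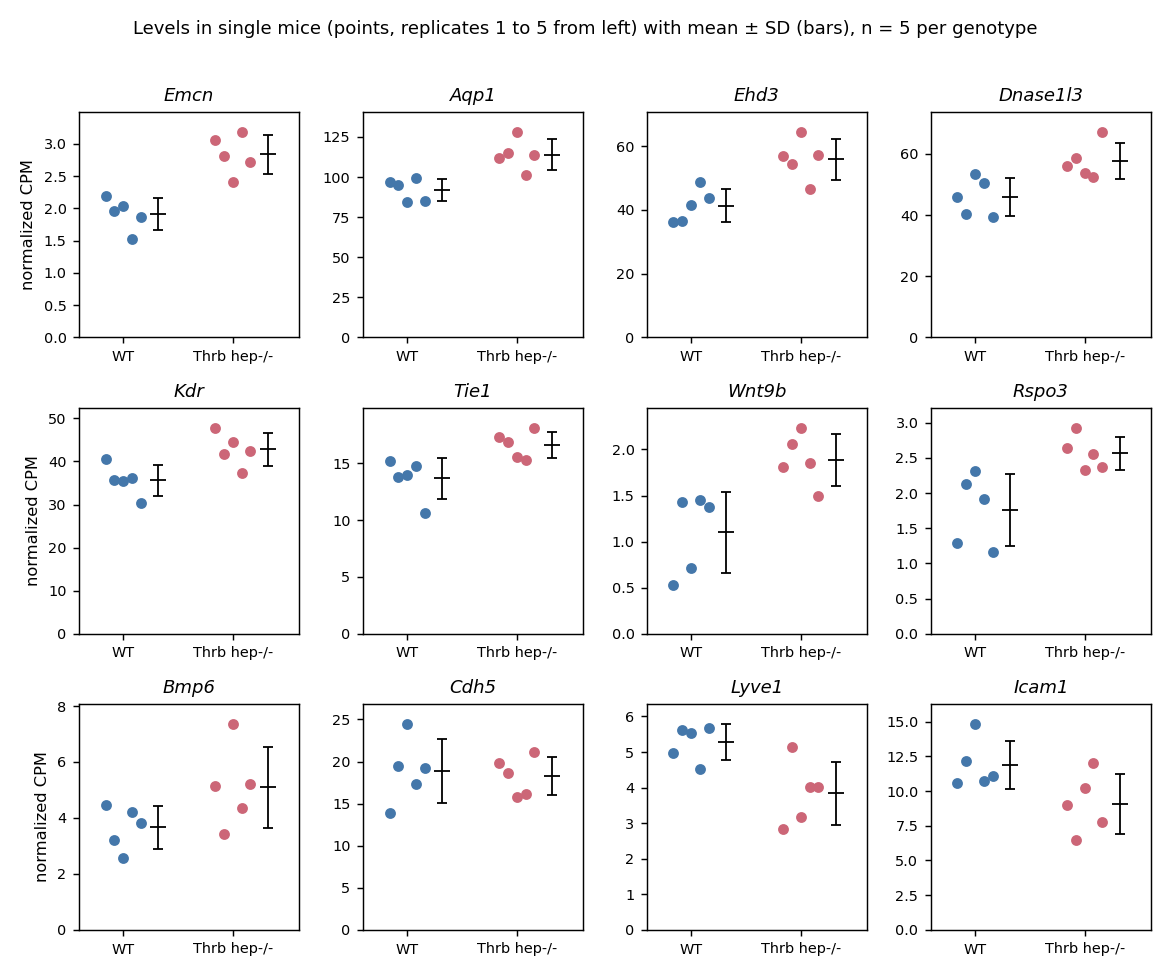
Normalized CPM (y axis, from 0) of 12 endothelial genes in each WT (blue) and Thrb hep-/- (red) mouse, with bars for the mean ± SD (n = 5). Emcn, Aqp1, Tie1, Wnt9b and Rspo3 show no overlap between genotypes, Ehd3, Dnase1l3, Kdr, Bmp6, Cdh5, Lyve1 and Icam1 do.

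The genes listed as hepatocyte targets and receptors of these ligands gave no call. They were measured in whole liver, and the part of other cells in their values was not tested. Of 10 BMP targets and receptors measured, 7 were fitted higher, none was past the threshold and the median log2 fold change was 0.33. Hamp, which encodes hepcidin, measured 595, 169, 296, 647 and 259 normalized CPM in WT and 784, 804, 677, 659 and 528 in Thrb hep-/- mice, where 4 of 5 stood above all WT mice (0.81 ± 0.34, adjusted p = 0.33). Hamp2 ranged over 1.02 to 6.06 and 1.29 to 12.2 (adjusted p = 0.91). Hamp was 1 of 4 genes of this list at an unadjusted p under 0.05, where 13.6% of all genes tested were. The others, Id1, Atoh8 and Smad6, were also fitted higher (log2 fold changes 1.08, 0.704 and 0.375, adjusted p = 0.24, 0.25 and 0.20). Bmpr1a, Acvr1 and Tfr2 were fitted lower (−0.00426, −0.102 and −0.203). Of 14 genes for targets and receptors of WNT and R-spondin, 8 were fitted higher and 6 lower, none was called, and the median was 0.06. Among them 2 were at an unadjusted p under 0.05, where 13.6% of all genes tested were. Lgr4 was fitted lower (log2 fold change −0.347, adjusted p = 0.15, not past the threshold) and Znrf3 higher (0.207, adjusted p = 0.27). Axin2 ranged over 5.63 to 9.10 in WT and 4.70 to 9.60 in Thrb hep-/- mice and Lgr5 over 3.95 to 9.08 and 3.19 to 10.2, with no difference beyond the spread (adjusted p = 0.94 and 0.93).

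The partners of the receptor genes were mostly not past the threshold either. Of the 9 VEGF and angiopoietin ligands and co-receptors 6 were tested, 3 were fitted higher, 3 lower and none was called. Vegfa, made largely by hepatocytes, ranged over 119 to 174 normalized CPM in WT and 119 to 167 in Thrb hep-/- mice (adjusted p = 0.88), and Vegfb over 9.34 to 16.6 and 11.0 to 22.1 (adjusted p = 0.33). In the list of Notch and flow-responsive genes 8 of 9 were tested, 4 were fitted higher, 4 lower and 1 was called. Notch1 fell, from 11.8 ± 1.89 (SD, n = 5) in WT to 7.48 ± 0.956 in Thrb hep-/- mice, with no overlap (log2 fold change −0.65 ± 0.13, adjusted p = 0.025). Many liver cells express Notch1, and its exons share 1068 bases with a gene on the other strand, which counting without strand cannot separate. Notch4 went the other way without a call, over 2.51 to 3.18 in WT and 3.11 to 5.04 in Thrb hep-/- mice (log2 fold change 0.47 ± 0.15, adjusted p = 0.19). The ligand genes Dll4 and Jag1 had log2 fold changes of −0.05 and 0.06 (adjusted p = 0.93 and 0.91). Of 10 genes of large vessels and other endothelium 6 were tested, and all 6 were fitted higher without a call (median 0.37). All but Cd34, 5 of the 6, were at an unadjusted p under 0.05, where 13.6% of all genes tested were. This share was not tested. Cd34 ranged over 1.02 to 1.63 and 0.995 to 2.48 (adjusted p = 0.38), and Vwf over 5.79 to 8.15 and 6.97 to 10.6 (adjusted p = 0.28).

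Across the whole list, 18 of the 40 members had an unadjusted p under 0.05, 16 of them fitted higher and 2, Lyve1 and Icam1, lower, where 13.6% of all genes tested did. In 6 members the genotypes did not overlap (Emcn, Aqp1, Tie1, Eng, Wnt9b and Rspo3), each higher in Thrb hep-/- mice, where 3.64% of all genes tested had groups apart. Of these, Wnt9b passed the filter only through the Thrb hep-/- mice. Members of one cell type rise and fall together with its RNA, so that these counts are not counts of independent genes. The list was also drawn up with earlier results of these data known, so the shares are a description and were not tested. Without WT mouse 2 or Thrb hep-/- mouse 5, 11 members were at an unadjusted p under 0.05, where 11% and 12.2% of all genes tested were. Without Thrb hep-/- mouse 4 the groups were apart in 11. That count compares fewer mice, which separate more easily, and the share of all genes was not computed for it. The number past the adjusted threshold was 0 without WT mouse 2, 1 without WT mouse 5 and 1 without Thrb hep-/- mouse 3, and 9 with DESeq2. Of all genes tested, 1.87%, 1.97%, 1.82% and 7.24% passed in these settings, in the same order.

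Single mice differed within each genotype. The highest of the 10 mice was a Thrb hep-/- mouse for 32 of the 40 members, and the lowest was a WT mouse for 31. Thrb hep-/- mice 1 and 2 were each highest for 10 members and above the mean of the 10 mice for 35. WT mouse 5 was lowest for 11 members and WT mouse 1 for 10. Thrb hep-/- mouse 4 stood with the WT mice, at a median deviation of −0.03 from the mean of the 10 mice on the log2 scale, against 0.05 to 0.17 in the other Thrb hep-/- mice and −0.13 to 0.02 in the WT mice.

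**Figure D5:**
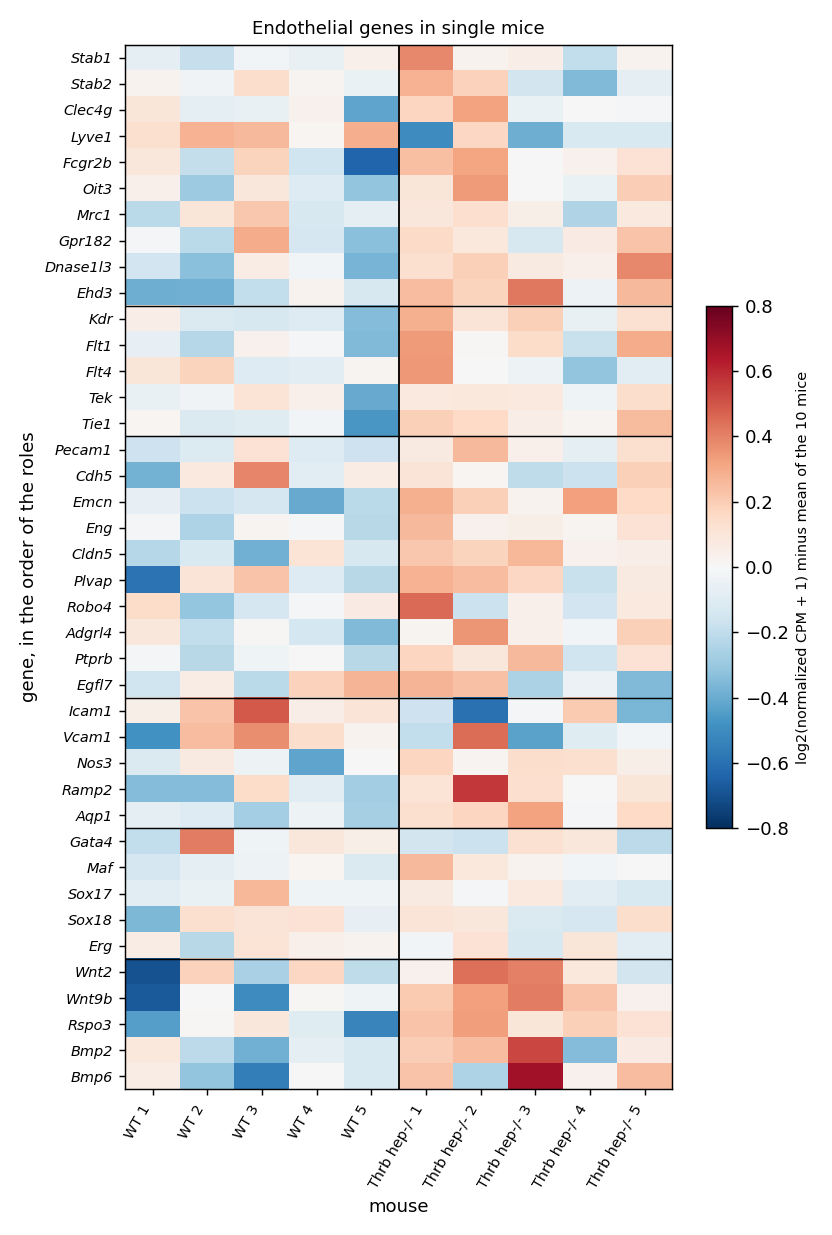
Deviation of log2(normalized CPM + 1) from the mean of the 10 mice (colour, red above and blue below) for the 40 endothelial genes (rows, by role) in each mouse (columns, WT left of the line). Red prevails in Thrb hep-/- mice 1 and 2 and blue in WT mouse 5, while Thrb hep-/- mouse 4 resembles the WT mice.

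Markers of other liver cells moved too. All 11 Kupffer cell and macrophage markers were fitted lower, none called (median −0.63), and they summed to 166 to 575 normalized CPM in WT and 184 to 374 in Thrb hep-/- mice. Stab1, Mrc1, Fcgr2b and Maf are also expressed by macrophages. All 10 stellate cell and fibroblast markers were fitted higher (sums 95.4 to 152 and 134 to 155), with Des called (log2 fold change 0.67, adjusted p = 0.057). Of 4 smooth muscle markers 2 were tested and both rose, Acta2 by 1.64 and Myh11 by 1.32 on the log2 scale (adjusted p = 0.026 and 0.031), with sums of 1.68 to 4.41 and 6.34 to 10.8 that did not overlap. Hepatocyte markers (6 tested, none called, Alb at 75000 and 78600), cholangiocyte markers (3 of 6 tested), erythroid markers (5 of 6) and lymphatic and portal vessel markers (2 of 5) gave no call. The lymphatic marker Ccl21a was at 0 counts in all 10 libraries. Among 10 lymphocyte and neutrophil markers 2 were tested and S100a8 fell (log2 fold change −2.67, adjusted p = 0.13), with sums of 8.13 to 22.5 and 6.82 to 10.3. Without the 10 members known to be shared with macrophages, cholangiocytes, stellate cells or hepatocytes, the median log2 fold change was 0.21, beside 0.20 with them. The part of these cell types in single members was not tested.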

How the data were processed

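Stranded mRNA libraries were made from the livers of 5 WT and 5 Thrb hep-/- mice. The authors aligned reads to mm10 with HISAT2 2.2.1 and deposited raw counts per Ensembl gene from HTSeq 0.9.1, counted without strand and without reads shared by several genes or places. Their table of fold changes and p-values was not used.

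Genes that reached 1 CPM in 5 or more libraries were tested with edgeR 4.0.16 in R 4.3.3 (TMM, robust quasi-likelihood F-test, Benjamini-Hochberg over all 12234 genes, threshold 0.15). Standard errors were computed as |log2 fold change| over the root of F, and 95% intervals from the normal quantile. Exact permutation tests were two-sided, on log2(normalized CPM + 1). At these depths 3 counts equal 0.105 to 0.113 CPM. No 2 libraries were identical, but nothing says how mice were sampled beyond 1 library each, so p-values measure the spread between these libraries. Exon lengths and overlaps came from GENCODE on GRCm38, and scripts were tested on simulated data. Alternatives were DESeq2 1.42.0, RLE, no filter, a block and leaving out each mouse.

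The members and lists were chosen with earlier results of these data known. All 40 members are accounted for; values per mouse are given for those at an adjusted p under 0.15 or an unadjusted p under 0.05, the 3 highest and 3 lowest fold changes, and fixed examples of each role. For the pathway lists, values are given for called genes, the first 2 and some others. For markers of other cells, counts, sums and single examples are given. Of 11 BMP genes, 1 symbol (Hjv) had no match.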

Additional observations from a re-analysis of the deposited data

Results flagged for a closer look

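In 5 of the 82 groups of 5 mice checked (40 members and Thrb, 2 genotypes each), 1 mouse lay far from the other 4 by Dixon's criterion, where chance alone gives about 1 in 20, or 4.1. Mrc1 measured 23.8 normalized CPM in Thrb hep-/- mouse 4, below 29.3 to 31.2 in the other 4. Pecam1 measured 17.8 in WT mouse 3, above 14.5 to 15.2. Ramp2 measured 11.3 in Thrb hep-/- mouse 2, above 7.35 to 8.13. Sox17 measured 2.29 in WT mouse 3, above 1.59 to 1.68, and Erg measured 3.64 in WT mouse 2, below 4.53 to 4.83. None of these 5 genes was past the adjusted threshold.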

How the results depend on the processing

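The median log2 fold change of the members stayed between 0.16 and 0.25 over every alternative run, and 29 to 34 members were fitted higher. Counts of calls were less stable. With DESeq2, 885 genes and 9 members (Aqp1, Cldn5, Dnase1l3, Ehd3, Emcn, Kdr, Lyve1, Ramp2 and Wnt9b) were past 0.15, and at an adjusted p of 0.05 the edgeR counts were 165 genes and 0 members. With RLE normalization 4 members passed, and with no filter 3, with Dnase1l3 in and Emcn out (adjusted p = 0.21). Leaving out each mouse gave 222 to 665 genes and 0 to 4 members past 0.15, 11 to 20 members at an unadjusted p under 0.05, and 5 to 11 members with groups apart. In these runs 10.2% to 16.1% of all genes tested were at an unadjusted p under 0.05. The share of all genes with groups apart was not computed for them. Over all 14 alternatives Ehd3 passed in 11, Emcn and Aqp1 in 8 each and Dnase1l3 in 5. Thrb stayed past the threshold in all (adjusted p 0.00098 to 0.13).

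The replicate numbers of the labels did not pair the mice (correlations of same-numbered mice −0.20 to 0.00305). With the number as a replicate block, 348 genes and 0 members were past 0.15, with adjusted p-values of 0.16 for Ehd3, 0.23 for Emcn and 0.24 for Aqp1, and 13 members were at an unadjusted p under 0.05.

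Leaving out 1 mouse changed the sign in 9 members, all with fold changes near 0, whose log2 fold changes then ranged from −0.112 to 0.047 for Stab2, −0.00331 to 0.107 for Mrc1, −0.138 to 0.0423 for Flt4, −0.134 to 0.0647 for Cdh5, −0.00941 to 0.179 for Robo4, −0.135 to 0.0311 for Egfl7, −0.0839 to 0.0594 for Sox17, −0.063 to 0.0734 for Sox18 and −0.0729 to 0.0281 for Erg.

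The data limit these statements. With 5 mice per genotype, the median standard error of the members was 0.12 on the log2 scale, beside a median change of 0.20. Counting without strand leaves Sox17, Nos3, Icam1, Maf, Rspo3 and Bmp6 uncertain, which share 224 bases or more with genes on the other strand. Smaller overlaps of this kind were found in Fcgr2b, Clec4g, Stab2, Stab1, Gpr182, Egfl7, Eng and Vcam1. Ramp2 and Egfl7 overlap genes on their own strand.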
